A study of Rattus norvegicus with 15 samples.

Results

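The genes described here encode the constitutive proteasome, the protease complex of every cell that degrades proteins tagged with ubiquitin. They were taken as the array probe sets annotated with exactly 1 gene symbol of the Psma, Psmb, Psmc or Psmd families, leaving out the inducible immunoproteasome subunits Psmb8, Psmb9 and Psmb10, with 1 probe set per gene, the one with the highest mean over all 15 arrays. The rule gave 34 genes from 45 probe sets, of 14217 genes named by 1 symbol. Psmb6, a catalytic subunit, was not analysed here because the annotation gives its probe set more than 1 symbol. Psmc3ip entered by its name: it encodes a partner of Psmc3 known from meiotic recombination and is no part of the proteasome.

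The tissue was the ventral tegmental area, a part of the midbrain whose dopamine neurons take part in reward, and RNA of each rat was run on 1 Affymetrix array. The labels give 7 rats as ethanol drinkers and 8 as age-matched water drinkers. The title of the series speaks of P (alcohol-preferring) rats and of a loss of control over alcohol drinking, and its design text of rat lines selected for high or for low intake, while the labels name only the ethanol and water groups. The sources used here give neither age, sex and drinking schedule nor any batch, and nothing beyond 1 animal per array on how the rats were related. Th, which marks dopamine neurons, was at log2 14.44 to 15.26 in all 15 rats, and the punch also held glia, so a level is an average over cell types, in which fewer cells of a type and less RNA per cell cannot be told apart.

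The proteasome has a barrel-shaped core particle, the 20S core, and a regulatory particle, the 19S particle, at its ends. The outer rings of the core are made of alpha subunits (Psma genes) and its inner rings of beta subunits (Psmb genes), some of which carry the proteolytic sites. The 19S particle has a base, whose ring of ATPases (Psmc genes) unfolds substrates and feeds them into the core, and a lid (most Psmd genes) that removes the ubiquitin chain. The complex is built in fixed proportions, and its genes are known to be transcribed together. The transcription factor Nfe2l1 is known to induce them when the proteasome is inhibited. Proteasome activity is known to be needed for synaptic plasticity in neurons.

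No constitutive proteasome subunit gene analysed here differed between ethanol and water rats beyond the test's threshold, and the genes varied together from rat to rat within both groups. Of the 34 genes, 34 passed the filter on dim probe sets and 0 were called by limma at an adjusted p below 0.05, where 0.929% of the 18625 tested probe sets were called, 0.387% higher and 0.542% lower in ethanol rats. At an unadjusted p below 0.05, 2 of the 34 genes passed, or 5.88%, against 12.1% of all tested probe sets. Both were lower in ethanol rats, as were 5.42% of all tested probe sets at that threshold, while 6.67% were higher. The groups overlapped in all 34 genes, and did not overlap in 0.623% of all tested probe sets. The median difference over the 34 genes, ethanol minus water, was -0.0045 log2 units, with 15 genes above 0 (44.1%, against 53.3% of all tested probe sets) and 19 below, beside a median of 0.0062 over all tested probe sets. The differences ran from -0.10 to 0.058 log2 units, their median size was 0.020, and the median size over all tested probe sets was 0.052.

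**Figure D1:**
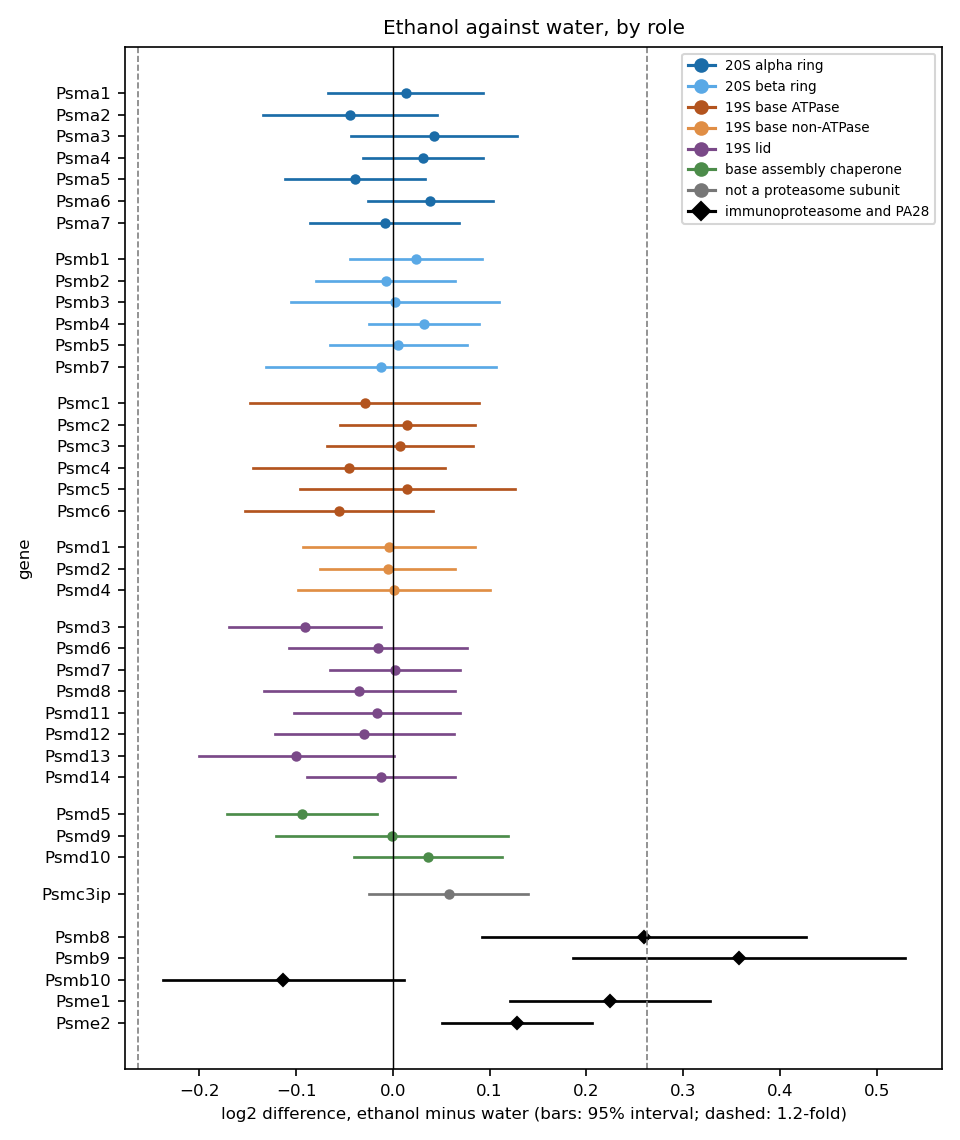
Log2 difference between ethanol (7) and water (8) rats on the horizontal axis, with limma's 95% interval as a bar, for each of the 34 genes by role (circles) and for 5 inducible proteasome genes (diamonds). The intervals of all 34 genes lie between the dashed lines at a 1.2-fold difference either way, and those of Psmd3 and Psmd5 do not reach 0.

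The intervals were narrow. For all 34 genes the 95% interval of the difference lay inside a 1.2-fold change either way (0.263 log2 units), its lowest bound being 0.870 of the water level and its highest 1.10-fold. These are intervals for single genes, not adjusted for the number of genes, and RMA, the normalization used by the authors, can compress differences. The standard error (SE) was 0.027 to 0.057 log2 units, with a median of 0.038, against 0.056 over all tested probe sets. The genes were bright, with means from 8.27 to 13.62 on a scale that reached 16.35 and a median of 11.79, against 9.26 over all tested probe sets. The median within-group SD of a gene was 0.066 log2 units, against 0.111 over all tested probe sets.

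**Figure D2:**
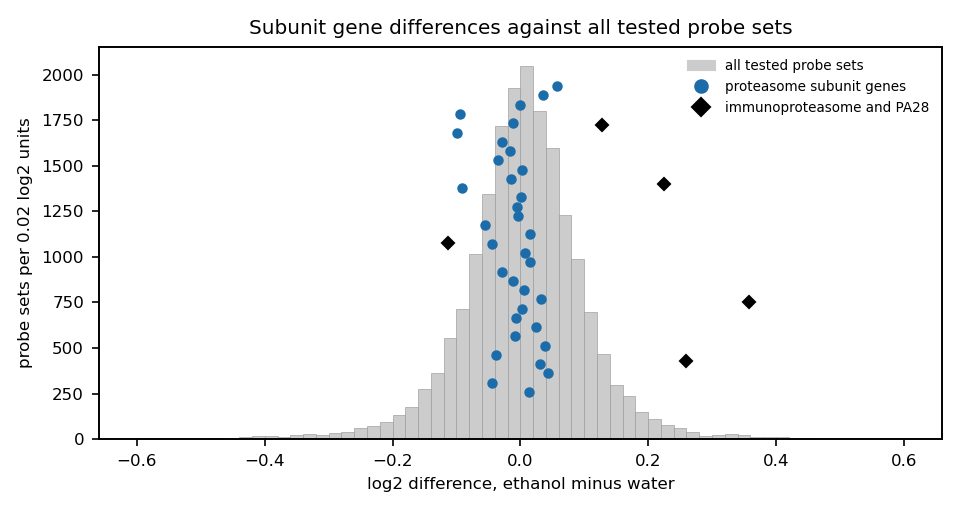
Distribution of the log2 difference, ethanol minus water, over all tested probe sets (grey bars, counts on the vertical axis). The 34 genes, Psmc3ip among them (circles), and 5 inducible proteasome genes (diamonds) are at their own differences. The height of a circle or diamond carries no value. The 34 circles lie between -0.10 and 0.058, and 4 of the 5 diamonds lie above 0.12.

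The alpha ring of the core, which gates the entry of substrates, is encoded by Psma1 to Psma7. None of the 7 passed the test, and their median difference was 0.013 log2 units. Psma6 had log2 values of 13.19 to 13.29 in ethanol rats, median 13.19, and of 13.14 to 13.25 in water rats, median 13.18. All 7 ethanol rats lay above the water mean, but the ranges overlapped over most of their length, and the difference was 0.039 (SE 0.031, adjusted p = 0.640 by limma). Psma3 was at 10.18 to 10.42 in ethanol rats (median 10.33) and 10.19 to 10.38 in water rats (median 10.25), a difference of 0.043 (SE 0.041, adjusted p = 0.702 by limma). Here 5 of 7 ethanol rats were above the water mean and the ethanol range enclosed the water range. The difference was 0.025 without ethanol rat 2 and 0.065 without ethanol rat 5. Psma2 and Psma5 had the most negative differences of the ring, -0.045 and -0.039, and Psma1, Psma4 and Psma7 were at 0.013, 0.031 and -0.0084.

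The beta ring carries the proteolytic sites. Of the 6 measured genes none passed, with a median of 0.0040 log2 units. Psmb5, the chymotrypsin-like subunit, had log2 values of 13.14 to 13.27 in ethanol rats (median 13.22) and 13.12 to 13.29 in water rats (median 13.21). The ethanol range lay inside the water range, and the difference was 0.0058 (95% interval -0.065 to 0.076), a sign that turned when arrays were centred on their median (-0.010). Psmb7, the trypsin-like subunit, was at 11.53 to 11.82 in ethanol rats (median 11.65) and 11.53 to 11.85 in water rats (median 11.65), so the groups overlapped almost wholly at a difference of -0.012 (95% interval -0.13 to 0.11). That sign turned without water rat 7 (0.014), water rat 8 (0.0091) or ethanol rat 5 (0.0085).

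Psmb1 to Psmb4 encode structural subunits of the ring that carry no active site. Psmb4 was at 13.60 to 13.67 in ethanol rats (median 13.66) and 13.56 to 13.63 in water rats (median 13.60). Its within-group SD, 0.029 log2 units, was the smallest of the 34 genes, its groups overlapped, and 4 of 7 ethanol rats were above the water mean (difference 0.032, SE 0.027, adjusted p = 0.665 by limma). Psmb1, Psmb2 and Psmb3 had differences of 0.024, -0.0075 and 0.0021.

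The ATPase ring of the 19S base, Psmc1 to Psmc6, had a median difference of -0.011 log2 units, and none of the 6 passed. Psmc6 had the most negative difference of the ring: its log2 values were 11.32 to 11.51 in ethanol rats (median 11.46) and 11.35 to 11.68 in water rats (median 11.47). Ethanol rats below the water mean numbered 6 of 7, the ranges overlapped, and the difference was -0.056 (SE 0.046, adjusted p = 0.658 by limma). Without water rat 8 it was -0.029, and without both water rats 7 and 8 -0.011. The other kept probe sets of Psmc6 were at -0.078 and 0.053, so the probe sets of this gene differed in sign, none with an unadjusted p below 0.05. Psmc1 and Psmc4 were at -0.029 and -0.045, and Psmc2, Psmc3 and Psmc5 at 0.015, 0.0073 and 0.015. The other subunits of the base, the scaffolds Psmd1 and Psmd2 and the ubiquitin receptor Psmd4, were at -0.0037, -0.0052 and 0.0012.

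Of the 8 lid genes, 7 had negative differences, as had 8690 of the 18625 tested probe sets. The median of the lid genes was -0.023 log2 units, and none passed. Most lid genes varied together between rats, so their signs are not separate results. Their mean deviation was highest in water rats 8 (0.095) and 7 (0.068). Psmd3, a scaffold subunit of the lid, had log2 values of 10.03 to 10.11 in ethanol rats (median 10.05) and 10.05 to 10.24 in water rats (median 10.16). All 7 ethanol rats lay below the water mean, and their range overlapped only the lower part of the water range. The difference was -0.091 (SE 0.037, 95% interval -0.17 to -0.013, unadjusted p = 0.0256, adjusted p = 0.324 by limma). Psmd13, another scaffold subunit, was at 9.62 to 9.81 in ethanol rats (median 9.73) and 9.62 to 9.94 in water rats (median 9.83). Again all 7 ethanol rats were below the water mean and the ranges shared their lower end, at a difference of -0.10 (SE 0.048, 95% interval -0.20 to 0.0014, adjusted p = 0.421 by limma), the largest of the 34 genes in size. Without water rats 7 and 8 the differences of Psmd3 and Psmd13 were -0.068 and -0.062, the second of them smaller by more than 1.5 times.

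Psmd14, the deubiquitinase of the lid, was at log2 -0.012. The further lid subunits Psmd6, Psmd8, Psmd11 and Psmd12 were at -0.015, -0.034, -0.017 and -0.029, and Psmd7 was at 0.0023. The further kept probe sets of Psmd14 were at -0.015 and 0.030, that of Psmd11 at 0.018 and that of Psmd7 at -0.00015.

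Psmd5, Psmd9 and Psmd10 encode chaperones that help assemble the base and leave it when it is complete. Psmd5 had the smallest unadjusted p of the 34 genes. Its log2 values were 10.60 to 10.70 in ethanol rats (median 10.63) and 10.64 to 10.86 in water rats (median 10.74). All 7 ethanol rats were below the water mean, and the upper part of the ethanol range overlapped the lower part of the water range (difference -0.094, SE 0.037, 95% interval -0.17 to -0.016, unadjusted p = 0.0210, adjusted p = 0.304 by limma). Psmd9 was at -0.00082, its second probe set at 0.074, and Psmd10, also known as the oncoprotein gankyrin, at 0.036.

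Psmc3ip, which is no proteasome subunit, was the dimmest of the 34 genes. Its log2 values were 8.27 to 8.39 in ethanol rats (median 8.29) and 8.16 to 8.42 in water rats (median 8.23). All 7 ethanol rats were above the water mean, within the water range, at a difference of 0.058 (SE 0.039, adjusted p = 0.581 by limma). Without this gene the median of the other 33 was -0.0052.

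The genes rose and fell together between rats of the same group. With the group means removed, the median Pearson correlation over the 15 rats was 0.474 for the 561 pairs of the 34 genes and 0.010 for all pairs of the 10252 tested genes. Of the gene pairs 79.5% were positive and 48.0% were above 0.5, against 51.1% and 8.81% of all pairs. Among the 7896 tested genes above the 60th percentile of level the median was 0.012, a set not matched to the 34 genes in brightness. These correlations are a description: all pairs share the same 15 arrays and the same normalization, and genes are not independent replicates. The median for the 34 genes was 0.418 over ethanol rats alone, 0.505 over water rats alone and 0.442 without water rats 7 and 8. Positive pairs made up 81.1%, 77.2% and 86.8% in turn, against 79.5% over all rats.

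**Figure D3:**
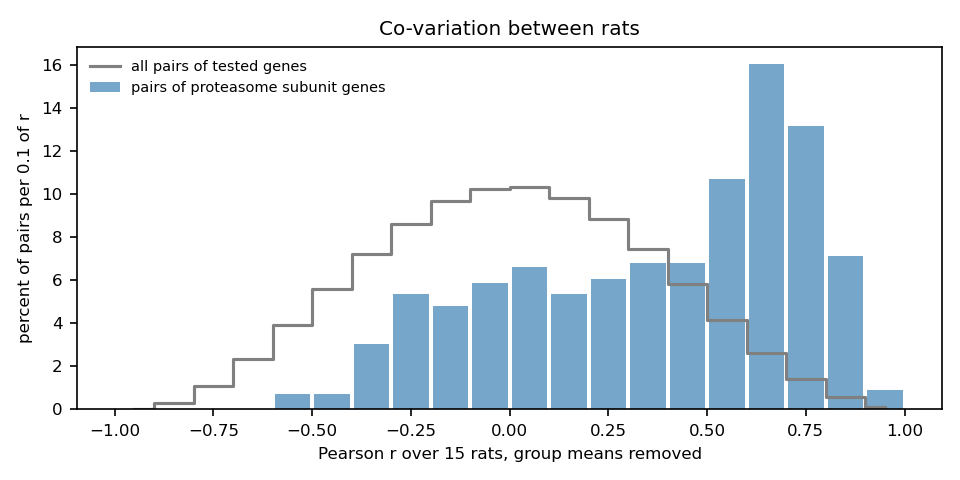
Distribution of Pearson's r over 15 rats, group means removed, on the horizontal axis, and percent of pairs per 0.1 of r on the vertical axis. Bars give the 561 pairs of the 34 genes, Psmc3ip among them, and the line gives all pairs of tested genes. The line is centred near 0, while the bars are highest between 0.6 and 0.7.

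In the ATPase ring all 15 pairs of Psmc1 to Psmc6 were positive, with r from 0.389 to 0.852 and a median of 0.662. The median was 0.415 in the alpha ring (21 pairs), 0.431 in the beta ring (15 pairs) and 0.456 between genes of the core and of the 19S particle (221 pairs). The 5 highest single correlations lay both across subcomplexes and within the lid: Psma7 of the alpha ring with the lid subunits Psmd6 (r = 0.940) and Psmd8 (0.913), the lid pair Psmd14 and Psmd6 (0.906), the ATPase Psmc2 with the lid subunit Psmd3 (0.904), and the lid pair Psmd6 and Psmd8 (0.90). These differences between rings were not tested.

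Each gene's median correlation with the other members was above 0.5 for 21 of the 34 genes and below 0 for 3. Psma7 had the highest, 0.723, followed by Psmd6 (0.703) and Psmc1 (0.674). The 3 below 0 were Psmd10 (-0.240) and the lid genes Psmd7 (-0.113) and Psmd11 (-0.033), and Psma4 (0.021), Psmc3ip (0.026) and Psmb2 (0.038) were close to 0. Among water rats, Psmd10 was lowest in rat 7 (log2 11.46), Psmd7 lowest in rat 8 (11.45) and Psmd11 highest in rat 4 (12.23). The weight of these single values in the negative correlations was not tested. Over the whole lid the 28 pairs had a median of 0.595, and 60.7% were positive. The 15 pairs of the 6 lid genes other than Psmd7 and Psmd11 had a median of 0.747 (0.57 to 0.906), while Psmd7 or Psmd11 paired with those 6 had a median of -0.187. The split of the lid was chosen after its values were seen. It depends on the probe set: the second probe set of Psmd7 had a median correlation of 0.174 with the members, that of Psmd11 0.116, and the 2 probe sets of Psmd11 had r = -0.531 with each other. Water rat 4 had the highest water value of the first Psmd11 probe set (12.23) and the lowest of the second (11.61). The correlation of the 2 probe sets was not computed without that rat. Other genes also differed between probe sets: those of Psmd14 had 0.669, 0.644 and 0.150, those of Psmc6 0.641, 0.138 and 0.383, and those of Psmd9 0.527 and 0.403.

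**Figure D4:**
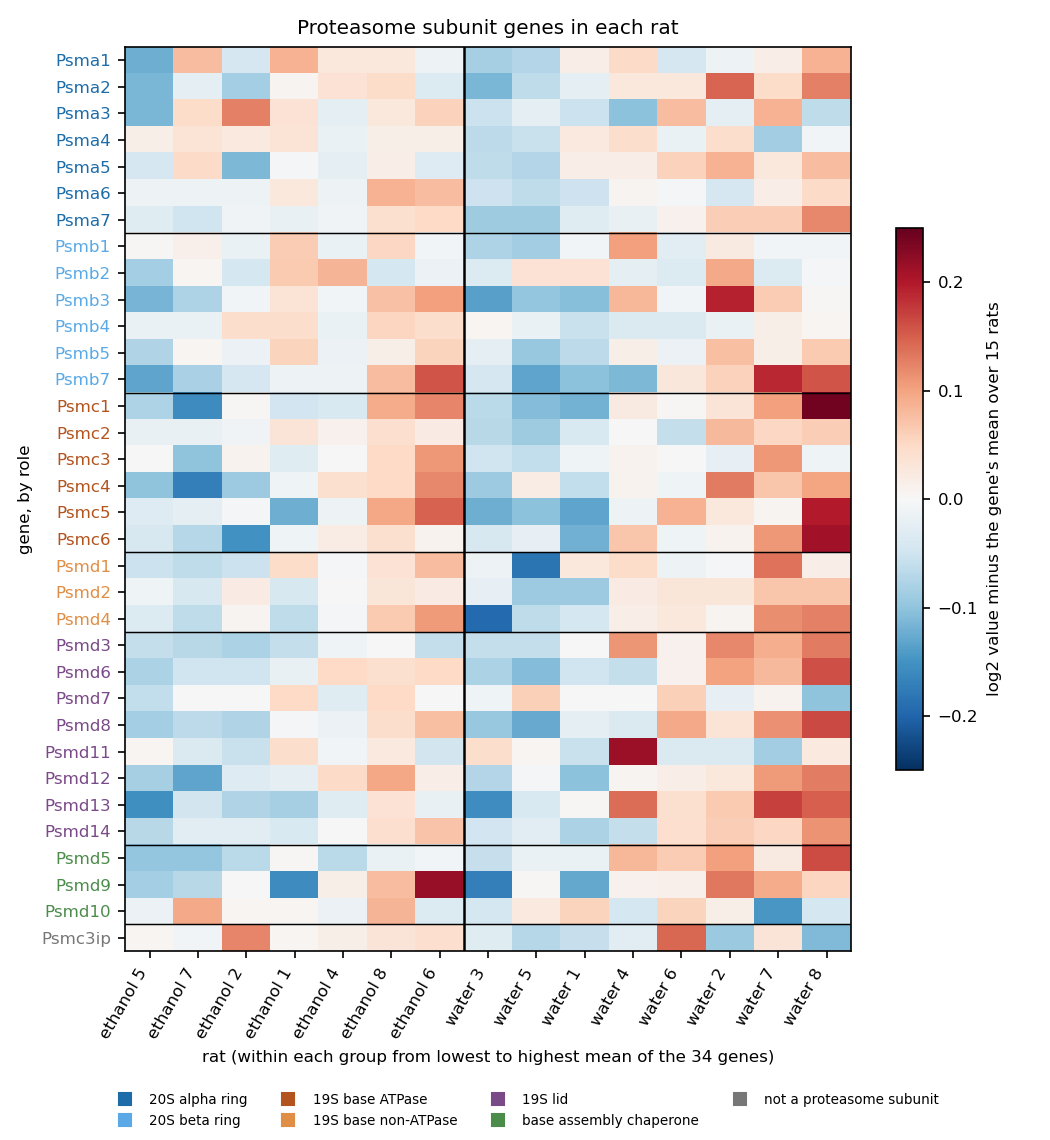
Each row is 1 of the 34 genes by role and each column 1 rat, the 7 ethanol rats left of the line and the 8 water rats right of it, ordered within a group by the mean of the 34 genes. Colour gives the log2 value minus the gene's mean over 15 rats. Most rows run from blue to red within both groups, in part because the columns are ordered by the mean of these same genes. Rows such as Psmd7, Psmd10, Psmd11 and Psmc3ip do not run this way.

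The mean of the 34 genes, each taken as its deviation from its own mean over all rats, shows which rats were high. In ethanol rats it ran from -0.058 to 0.044 log2 units with a mean of -0.0050 ± 0.038 (SD, n = 7), and in water rats from -0.067 to 0.072 with a mean of 0.0044 ± 0.053 (SD, n = 8). The ethanol range lay inside the water range. Water rats 8 (0.072), 7 (0.050) and 2 (0.044) were highest, with ethanol rats 6 (0.044) and 8 (0.043) next, and water rats 3 (-0.067) and 5 (-0.055) and ethanol rat 5 (-0.058) lowest. In water rat 8 the ATPase ring stood at 0.135 and the core at 0.047.

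Water rats 7 and 8 also stood apart in their dopamine neuron markers and had the lowest microglia markers and correlations with the other arrays. Their dopamine neuron markers (Th, Slc6a3, Slc18a2 and Ddc) averaged 0.42 and 0.40 log2 units below the mean over all rats, the lowest of the 15, where the other 13 rats lay between -0.17 and 0.36. Their microglia markers stood at -0.24 and -0.28 log2 units from the mean over all rats, also the lowest, with water rat 3 close at -0.22. Their median correlations with the other arrays, 0.9881 and 0.9893, were the lowest, but water rat 5 was close to water rat 8 at 0.9895. The 3'-minus-5' difference of the Gapdh control, a measure of RNA integrity, was 0.30 in water rat 8, the lowest, and 0.33 in water rat 7. It ran up to 0.55 in water rats and from 0.33 to 0.46 in ethanol rats. That of the beta-actin control was 2.54 in water rat 7 and 2.47 in water rat 8, within the ethanol range of 2.39 to 2.67. The part of these measures in the 34-gene mean was not tested. Without water rats 7 and 8 the median difference of the 34 genes was 0.021 with 24 genes above 0 and 0 passing at an unadjusted p below 0.05. The median was also above 0 with 1 rat left out for water rats 7 (0.0068), 8 (0.0056) and 4 (0.0016) and ethanol rats 5 (0.0067) and 7 (0.0014), so its sign had no fixed direction, while the count of called genes was 0 in each of these fits.

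The promoters of 4 genes are shown as examples from the range of co-variation: Psmc2 and Psmd3, a pair with r = 0.904, Psmd10, the gene with the lowest median correlation, and Psmb5, a catalytic subunit. The windows run from 250 bases before to 50 after the annotated start, 5' to 3' on the gene's strand, from RefSeq on the GRCr8 assembly. Capitals mark matches on either strand to any of 4 motifs.
Psmc2, GRCr8 chr4:14162341-14162640, minus strand: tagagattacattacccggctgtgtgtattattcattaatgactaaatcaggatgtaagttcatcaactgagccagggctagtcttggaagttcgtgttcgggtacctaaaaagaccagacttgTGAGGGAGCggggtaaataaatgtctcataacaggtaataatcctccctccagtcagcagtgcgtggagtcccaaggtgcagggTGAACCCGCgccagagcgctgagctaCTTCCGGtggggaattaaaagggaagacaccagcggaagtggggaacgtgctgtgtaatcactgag
Psmd3, GRCr8 chr10:84139688-84139987, plus strand: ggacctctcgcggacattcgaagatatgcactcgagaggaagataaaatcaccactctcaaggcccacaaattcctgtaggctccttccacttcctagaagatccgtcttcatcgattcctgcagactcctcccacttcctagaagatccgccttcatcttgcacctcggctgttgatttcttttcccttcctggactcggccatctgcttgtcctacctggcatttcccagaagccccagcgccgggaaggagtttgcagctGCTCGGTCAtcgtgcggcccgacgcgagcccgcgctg
Psmd10, GRCr8 chrX:109453556-109453855, minus strand: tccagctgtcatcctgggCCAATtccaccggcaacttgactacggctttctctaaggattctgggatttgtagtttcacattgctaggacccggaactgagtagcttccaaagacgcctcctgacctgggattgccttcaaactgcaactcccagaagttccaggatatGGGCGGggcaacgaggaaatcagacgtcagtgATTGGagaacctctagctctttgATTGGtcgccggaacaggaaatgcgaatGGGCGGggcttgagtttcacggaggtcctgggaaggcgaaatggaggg
Psmb5, GRCr8 chr15:32047330-32047629, minus strand: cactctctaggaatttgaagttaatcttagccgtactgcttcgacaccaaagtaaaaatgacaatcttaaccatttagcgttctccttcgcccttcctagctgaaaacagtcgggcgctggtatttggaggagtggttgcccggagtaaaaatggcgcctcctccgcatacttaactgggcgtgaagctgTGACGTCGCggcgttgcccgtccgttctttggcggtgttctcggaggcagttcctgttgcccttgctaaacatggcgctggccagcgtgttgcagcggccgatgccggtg

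The motifs were TGANNNNGC, the type of element bound by Nfe2l1 and Nfe2l2, the NF-Y box CCAAT, the GC box GGGCGG and the ETS type motif CCGGAAG. The windows of Psmc2 (2 matches), Psmd3 (1) and Psmb5 (1) held TGANNNNGC, and that of Psmc2 also held CCGGAAG. The window of Psmd10 held 3 CCAAT and 2 GGGCGG matches and no match to TGANNNNGC. Windows were found for 30 of the 34 genes, all but Psma7, Psmd6, Psmd12 and Psmd14.

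Of the 30 windows, 18 held TGANNNNGC, or 60%, against 40.5% of all 33469 promoters in the table and 43.2% of the 9649 promoters of tested genes. Among genes with high median correlations, the windows of Psmd8 (0.671), Psmb7 (0.668), Psmc2 (0.656), Psmd5 (0.649) and Psmd13 (0.647) held it. Those of Psmc1 (0.674), Psmd4 (0.673), Psmc6 (0.641) and Psma6 (0.623) did not. Among genes with median correlations near or below 0, the windows of Psmd7, Psmc3ip and Psmb2 held it. Those of Psmd10, Psmd11 and Psma4 did not. A link between the motif and the correlations was not tested. CCAAT was in 17 (56.7%, against 37.5% and 37.1%) and GGGCGG in 21 (70%, against 33.1% and 62.6%). CCGGAAG was in 11 (36.7%, against 8.75% and 17.3%): those of Psma6, Psmb4, Psmb7, Psmc1, Psmc2, Psmc3ip, Psmc6, Psmd4, Psmd7, Psmd11 and Psmd13. A match is a run of letters and not a measured binding site, and CCAAT and the other short motifs occur often by letter composition. In 4 of the 30 windows (13.3%), against 10.2% of all promoters, the window overlapped that of a gene on the opposite strand. Psmc3ip, no proteasome subunit, is counted in these shares, and its window held each of the motifs. None of these shares was tested.

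Of 59 genes in lists of activators, assembly factors, deubiquitinases, ubiquitin receptors, ubiquitin enzymes and regulators, 49 were measured, 0 were called (0.929% of all tested probe sets were) and 2 had an unadjusted p below 0.05 (4.08%, against 12.1%), with differences from -0.13 to 0.059 and a median of -0.013 log2 units (21 above 0, 28 below). Nfe2l1, the transcription factor that induces proteasome genes when the proteasome is inhibited, was at 11.70 to 11.89 in ethanol rats (median 11.79) and 11.64 to 11.98 in water rats (median 11.76), a difference of 0.018 (SE 0.052, adjusted p = 0.919 by limma). The ethanol range lay within the water range. The core assembly factor Pomp was at 13.05 to 13.16 in ethanol rats (median 13.11) and 13.02 to 13.19 in water rats (median 13.09), a difference of 0.017 (SE 0.034). The proteasome-bound deubiquitinase Usp14 was at 13.21 to 13.29 (median 13.26) and 13.16 to 13.32 (median 13.23), a difference of 0.0063 (SE 0.031), and for both genes the ethanol range again lay within the water range. Those that passed unadjusted were the ubiquitin-conjugating enzymes Ube2g1 (-0.13, adjusted p = 0.116 by limma) and Ube2d2 (-0.11, adjusted p = 0.179 by limma), named after their values were seen.

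Of the 5 inducible genes, Psmb9, a catalytic subunit of the immunoproteasome, and Psme1, a subunit of the PA28 activator, were called higher in ethanol rats and none was called lower, where 0.387% of tested probe sets were called higher. Psme1 was at 11.39 to 11.57 in ethanol rats (median 11.49) and 11.09 to 11.42 in water rats (median 11.25), a difference of 0.22 (SE 0.049, adjusted p = 0.0383 by limma). All 7 ethanol rats were above the water mean, with a small overlap, and the call ended in 11 of 15 fits with 1 rat left out (adjusted p up to 0.0958 by limma), being kept only without water rat 1, 4 or 8 or ethanol rat 4. Psmb9 was at 7.47 to 8.05 in ethanol rats (median 7.70) and 7.13 to 7.53 in water rats (median 7.39), again with all 7 ethanol rats above the water mean and a small overlap, a difference of 0.36 (SE 0.081, adjusted p = 0.0477 by limma) whose call ended in 13 of those 15 fits (adjusted p up to 0.0988 by limma), being kept only without water rat 4 or ethanol rat 5.

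The immunoproteasome subunit Psmb8 was at 7.89 to 8.50 in ethanol rats (median 8.04) and 7.61 to 7.98 in water rats (median 7.82), with all 7 ethanol rats above the water mean and the ranges overlapping (0.26, adjusted p = 0.169 by limma). The subunit Psmb10 was at 9.09 to 9.37 in ethanol rats (median 9.25) and 9.15 to 9.46 in water rats (median 9.43), with 5 of 7 ethanol rats below the water mean (-0.11, adjusted p = 0.462 by limma). Neither passed, nor did Psme2, the other PA28 subunit measured (0.13, adjusted p = 0.136 by limma). Microglia, which are known to express the inducible subunits, had marker means of 8.73 to 9.04 in ethanol rats and 8.42 to 8.77 in water rats, with 2 of 6 markers called (Trem2 and Tyrobp), and the part of this in the inducible genes was not tested.

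**Figure D5:**
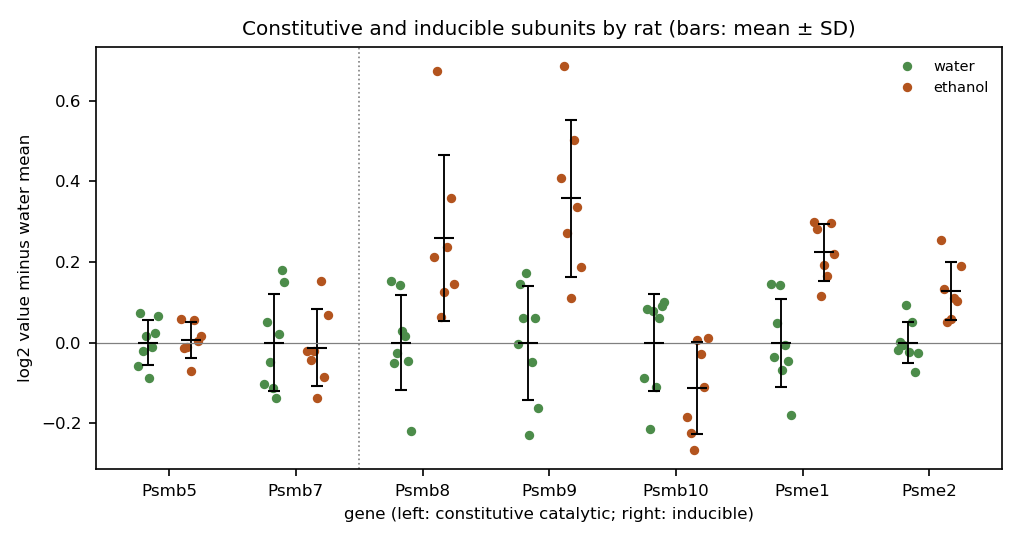
Log2 value minus the gene's water mean (vertical axis) in each water (8) and ethanol (7) rat, with mean ± SD, for the constitutive catalytic genes Psmb5 and Psmb7 and for 5 inducible genes. The groups of Psmb5 and Psmb7 cover the same range, whereas all 7 ethanol rats of Psmb8, Psmb9, Psme1 and Psme2 lie above the water mean.

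Psmb8 and Psmb10 take the places of Psmb5 and Psmb7 in the immunoproteasome, and each pair was also set side by side within rats, a comparison chosen after seeing the data and given as a description. The difference Psmb8 minus Psmb5 was 0.25 log2 units higher in ethanol than in water rats, nearly the difference of Psmb8 alone (0.26), since that of Psmb5 was 0.0058. Relative to the water mean, it ran from 0.074 to 0.69 in ethanol rats and from -0.28 to 0.21 in water rats, so the groups overlapped, and 7 of 7 ethanol rats were above the water mean. It was 0.18 without ethanol rat 2, which had the highest value, and 0.20 without water rats 7 and 8. Psmb10 minus Psmb7 was at -0.10, with 1 of 7 ethanol rats above the water mean.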

How the data were processed

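The deposited table holds log2 values that the authors made with RMA, per the submitters' processing notes, for 31099 probe sets on 15 arrays, with 0 missing. The sources used here name no RMA software or version. The labels state a start of 25 ng total RNA and 2 rounds of amplification before labelling, which can favour the 3' ends of transcripts. Symbols are those of GEO's platform annotation (20826 probe sets with 1 symbol, 436 with several, 9780 with none), and promoters from a RefSeq table on GRCr8.

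The 57 control probe sets were left out, and probe sets with a mean at or above the 40th percentile (log2 6.94) were kept, 18625 in all. The test was limma 3.58.1 (R 4.3.3), two-sided, on a fit of group alone, with Benjamini-Hochberg adjustment over all 18625 and a threshold of 0.05. Differences are ethanol minus water, and the number of arrays limits their precision. The script was tested on simulated data. The labels give both groups the same rat numbers but do not say whether these pair animals. The main fit therefore did not treat rats as pairs, and a fit with the rat number as a block was an alternative. Same-numbered rats had correlations from -0.415 to 0.295 in their deviations, with 4 of 7 pairs over 0.1. So few pairs cannot settle whether the rats were paired. Nothing in the labels links rats to litters or days.

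The members and lists were chosen with earlier results of these data known. The rule for values by rat took called members (there were 0), members whose probe sets differed in sign with an unadjusted p below 0.05 (also 0), the 4 largest positive and 4 most negative moderated t among the 34 genes, Psmb5 and Psmb7, called genes of the other lists, and a fixed set (Psmb8, Psmb9, Psmb10, Nfe2l1, Pomp, Usp14). Alternatives covered the filter, variance model, array weights, test, scaling, probe set choice, rat number as a block, and left-out rats.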

Additional observations from a re-analysis of the deposited data

Results flagged for a closer look

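In 4 of 78 groups of rats tested (each gene within ethanol or water), the highest or lowest rat stood apart from the rest of its group by more than Dixon's 95% critical value, and chance gives about 1 in 20. Psmc3 was at log2 11.87 in water rat 7, the next water rat being at 11.77. Psmc3ip was at 8.394 in ethanol rat 2, with the next ethanol rat at 8.314. Psmd1 was at 11.21 in water rat 5, with the next lowest at 11.38. Psmd11 was at 12.23 in water rat 4, with the next highest at 12.06.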

How the results depend on the processing

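The count of called subunit genes was 0 under all 27 alternatives, with 0 to 3 genes at an unadjusted p below 0.05. Over fits that left out 1 rat it was 0 throughout, and the median difference ran from -0.016 to 0.0068 log2 units. Over the other alternatives the median ran from -0.021 to 0.021. Its sign was not kept. With arrays centred on their median over all probe sets it was -0.021 with 7 of 34 genes above 0, against 15 without centring. Such centring moved the difference of every gene by the same amount, so the count above 0 fell with it. With the rat number as a replicate block, which takes water rat 3 out of the comparison because no ethanol rat shares its number, the median was -0.015 and 0 genes were called, while calls over all tested probe sets fell to 59. The exact permutation test called 0 of the 34 genes and 61 probe sets in all. Called probe sets numbered 173 in all, 100 without ethanol rat 7 and 102 without ethanol rat 8. In 1 of 7 ethanol rats the water rat with the same number correlated best.

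The median pairwise correlation was 0.617 with arrays centred on the median of all probe sets and 0.602 when centred on genes outside the list, against 0.447 to 0.511 with 1 rat left out. Psmb5 changed sign with centring (-0.010), and ran from -0.0068 to 0.019 with 1 rat left out. Psmb7 changed sign without water rats 7 and 8 (0.043), and ran from -0.040 to 0.014. Centring also brought Psma3 to 0.027, Psma6 to 0.023 and Psmb4 to 0.016, and array weights brought Psmc3ip to 0.036. Of the 34 genes, the 10 followed one by one (Psmc3ip among them) were called in none of these fits. Psmb8 minus Psmb5 was 0.20 without water rats 7 and 8 and ran from 0.18 to 0.28 with 1 rat left out. Psmb10 minus Psmb7 ran from -0.14 to -0.074, lowest without ethanol rat 5. Psmb9 lost its call under 18 of 25 alternatives and Psme1 under 15 of 26, with adjusted p from 0.0304 to 0.114 and from 0.0223 to 0.142 over limma fits and the exact permutation test. The number of arrays and compression by RMA limit all of these values. Apart from the common shift by centring, the cause of the changes was not tested.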
